A study of Mus musculus with 454 samples.

Results

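The genes Calca, Calcb and Tac1 were followed as a set of 3, taken by name from the 36920 genes of the picked-cell read table and the 28001 genes of the droplet matrix. Calca gives rise to the neuropeptide CGRP (calcitonin gene-related peptide) or, by alternative splicing, to calcitonin. Calcb encodes the closely related beta form of CGRP. Tac1 encodes the precursor of substance P and neurokinin A. No threshold on measured values was used for the choice, but earlier results of these data were known when it was made.

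The study profiled sensory neurons of the mouse vagus nerve, many of which have their cell bodies in the nodose ganglion. All mice were wild type C57BL/6, and ganglia were dissociated with papain, collagenase and dispase. One droplet library (10x Genomics) sampled whole ganglia of mice aged 6 weeks. Single cells from mice aged 8 to 12 weeks were picked and amplified one by one (Smart-seq2), and each carries a mouse number and a target code. The codes are Port, GastG, GastP, IntL, IntP, IntM, IntD and na. What the codes abbreviate is left as the labels have it, with Gast short for GastG and GastP and Int short for the 4 codes IntL to IntD. All but 3 picked cells passed a minimum of 2000 detected genes, 53 of those that passed were coded na, and the others came from 30 mice. Comparisons used the mouse as the replicate and rested on 8 Port, 8 Gast and 13 Int mice. The Gast mice were 5 GastG and 3 GastP, and the Int mice were 3 IntL, 4 IntP, 3 IntM and 3 IntD. The genotype, strain and tissue were the same in every group, and no treatment is given.

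Peptidergic sensory neurons store CGRP and tachykinins in dense-core vesicles and release them at both their central and their peripheral ends. CGRP acts on a receptor made of the calcitonin receptor-like receptor (Calcrl) and the accessory protein RAMP1. Substance P acts mainly on the tachykinin receptor NK1 (Tacr1). In somatosensory ganglia of rodents, CGRP and substance P are classical markers of peptidergic nociceptors.

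Calca and Calcb lie head to head on chromosome 7 and were read here on build mm10 (GRCm38) with GENCODE gene models. Calca (ENSMUSG00000030669.13) spans chr7:114631478-114636357 on the minus strand with 7 annotated transcripts. Calcb (ENSMUSG00000030666.11) spans chr7:114718643-114723365 on the plus strand with 3 transcripts, 82.3 kb away. Tac1 (ENSMUSG00000061762.12) spans chr6:7554879-7565834 on the plus strand with 5 transcripts. The last coding exons of the CGRP transcripts Calca-201 (chr7:114632443-114632599) and Calcb-201 (chr7:114721975-114722134) are shown because reads from them bear on the values of both CGRP genes. They are printed 5′ to 3′ in the direction of each gene, with capitals at the bases that differ.
Calca-201, last coding exon: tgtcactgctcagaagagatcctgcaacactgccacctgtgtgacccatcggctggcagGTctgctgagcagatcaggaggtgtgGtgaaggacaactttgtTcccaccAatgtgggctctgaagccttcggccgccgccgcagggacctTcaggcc
Calcb-201, last coding exon: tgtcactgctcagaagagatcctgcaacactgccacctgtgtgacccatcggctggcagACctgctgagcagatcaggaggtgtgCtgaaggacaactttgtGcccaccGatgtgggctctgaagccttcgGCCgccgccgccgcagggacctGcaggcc
These exons were identical at 94.4% of 160 aligned positions, with 6 substitutions, 3 gap positions and a longest identical run of 59 bases. The middle coding exons were 75% identical and the first coding exons 74.2%. The calcitonin-type last coding exon of Calca matched the Calcb exon at 43.98% of positions. The longest run shared by any Calca and any Calcb transcript was 61 bases, whereas Tac1 shared no run over 11 bases with either. No source used here says how the authors counted reads from the shared runs, so reads of that exon are uncertain between Calca and Calcb. Reads summed per gene do not separate CGRP transcripts of Calca from calcitonin transcripts.

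The 300 bases around the start sites of Calca (chr7:114636308-114636607, minus strand) and Tac1 (chr6:7554811-7555110, plus strand), from RefSeq on GRCm38.p6, are printed because both hold the same short element. Capitals mark matches to TGACG and to the longer TGACGCAAT on either strand. Calcb is named only.
Calca promoter: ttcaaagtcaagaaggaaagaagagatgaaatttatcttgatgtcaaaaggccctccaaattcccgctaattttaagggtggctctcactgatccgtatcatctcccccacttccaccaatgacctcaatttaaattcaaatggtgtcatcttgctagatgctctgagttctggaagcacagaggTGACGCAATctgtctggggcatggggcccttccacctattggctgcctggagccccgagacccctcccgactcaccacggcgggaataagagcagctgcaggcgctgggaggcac
Tac1 promoter: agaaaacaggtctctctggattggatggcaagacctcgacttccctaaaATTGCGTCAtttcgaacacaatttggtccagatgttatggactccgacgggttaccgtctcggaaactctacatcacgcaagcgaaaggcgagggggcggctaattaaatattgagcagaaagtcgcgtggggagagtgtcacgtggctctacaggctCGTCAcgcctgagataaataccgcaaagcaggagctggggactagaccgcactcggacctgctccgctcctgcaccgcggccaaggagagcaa
TGACG, the short form of the cyclic AMP response element, occurred once in the Calca window, with its first base at -65 from the start site. It occurred at -197 and -43 in the Tac1 window, both on the other strand. This motif was present in 20.8% of 32851 promoter windows of the same length. The 9 bases TGACGCAAT, which contain TGACG and were noticed only after both windows had been read, stood at -65 in Calca and, on the other strand, over the TGACG at -197 in Tac1. They were present in 32 of the windows (0.0974%). The full element TGACGTCA (1.79% of windows), the AP-1 element TGANTCA (7.81%) and the TATA box letters TATAAA (13.6%) matched neither window, and CACGTG (7.15%) matched once in Tac1. These matches describe letters in a window and nothing else.

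The picked cells were deep, with a median of 1617517 reads and 11389 genes per cell. A gene was called present in a picked cell at 10 reads. Calca was present in 20.7% of the cells (93 cells of 31 mice), Calcb in 34.3% (from 33 mice) and Tac1 in 6.01% (27 cells of 14 mice). Each cell was scaled to counts per 1000000 reads (CPM), and log2(CPM + 1) was averaged over the cells of a mouse. All levels by mouse below are such averages, and a fold on this scale understates the change of low genes. A mouse average cannot tell fewer expressing cells from less RNA per cell. The 8 pan-neuronal markers were each present in 88.4% or more of the cells. The nodose-like markers P2rx2, Htr3a, Hoxb5 and Hoxb6 were each present in 83.1% or more. Of the 5 jugular-like markers, Prdm12, which defines the neural crest-derived jugular type, was present in 0.668% of the cells, Prrxl1 in 25.8%, Runx1 in 40.3%, Tlx3 in 98.2% and Isl2 in 99.8%.

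Calca was high in Gast mice, low in Int mice and split among Port mice. In the 5 GastG mice its level was 4.94, 2.87, 3.43, 2.29 and 3.13, and in the 3 GastP mice it was 3.59, 3.44 and 3.45. In the Int mice it was 1.08, 1.30 and 0.89 for IntL, 1.22, 0.79, 0.70 and 0.80 for IntP, 0.40, 0.44 and 0.57 for IntM, and 0.94, 0.87 and 0 for IntD. Every Gast mouse lay above every Int mouse. Among the Port mice Calca stood at 3.57, 3.01 and 2.46 in mice 21, 22 and 27 and at 1.19, 1.97, 1.39, 1.16 and 1.47 in mice 46, 47, 51, 52 and 53. The first 3 Port mice reached the Gast range and 4 of the other 5 did not exceed 1.47.

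**Figure D1:**
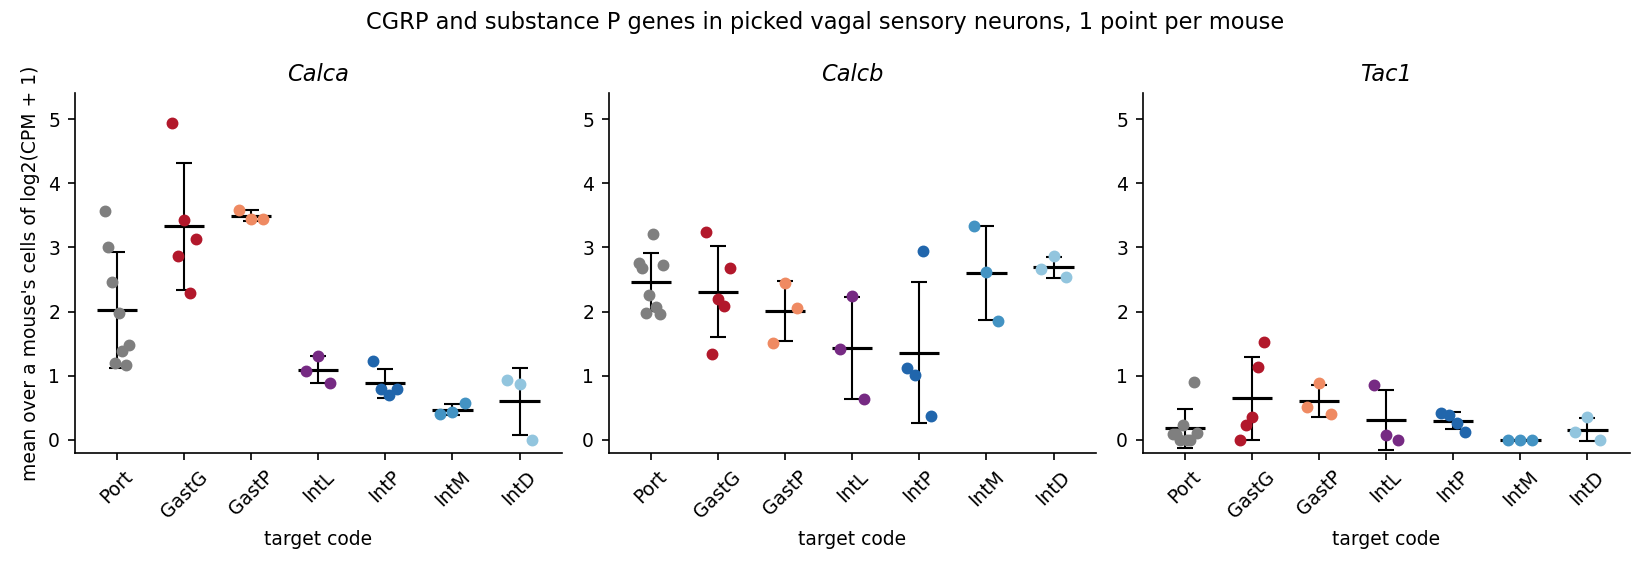
Mean log2(CPM + 1) of Calca, Calcb and Tac1 in each of the 29 mice (points) by target code, with the mean of the mice of a code as a line. Calca in Gast mice lies between 2.29 and 4.94 and in Int mice between 0 and 1.30, while Calcb overlaps across all codes and Tac1 stays near 0 in most mice.

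Calca averaged 3.39 ± 0.755 in Gast mice (SD, n = 8) and 0.768 ± 0.356 in Int mice (n = 13). The difference of code means was 2.65 on the log2 scale (SE 0.296, 95% interval 2.05 to 3.26), with an adjusted p of 3.09e-07 in limma with Benjamini-Hochberg adjustment over 12713 genes. In that comparison 1878 genes (14.8%) were called, 1151 higher (9.05%) and 727 lower (5.72%), and 41 genes (0.323%) were higher in Gast without overlap between mice. Calca ranked 16 by fold and 47 by p. On reads summed per mouse, where a few cells with much Calca weigh more, edgeR gave 6.41 and DESeq2 gave 6.48. Leaving out the picked cells that matched the Sst and Ctxn3 cluster of the droplet library reduced the difference to 1.43 (adjusted p = 0.0109). That cluster was chosen for its droplet level of Calca, the highest among clusters that took 20 or more picked cells. It took 49 Gast cells and 4 Int cells, so a smaller difference was partly set by the choice.

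Markers of neuron type moved with this comparison as well. Of the 5 nodose-like markers, P2rx2, Htr3a, Hoxb5 and Hoxb6 were called lower in Gast mice, and their summed level ranged between 705.9 and 3765 CPM in Gast mice and between 2600 and 8774 CPM in Int mice. Of the 4 tested jugular-like markers, Prrxl1, Runx1 and Tlx3 were called higher, with a summed level of 269.2 to 512.7 CPM in Gast mice and 212.6 to 392.5 CPM in Int mice for all 5. Satellite glia markers summed to 216.7 to 3140 CPM in Gast mice and to 273.7 to 3086 CPM in Int mice, and none of the 7 was called. The median reads per cell of a mouse ranged between 1146427 and 2381877 in Gast and between 1078794 and 1908403 in Int. Of the transcripts of nerve injury, Atf3 ranged between 4.73 and 7.40 in Gast mice and between 2.99 and 6.50 in Int mice. Sprr1a ranged between 0 and 3.91 in Gast mice and between 0 and 1.45 in Int mice. The part of neuron type markers and of injury transcripts in the Calca difference was not tested. With every cell thinned to 100000 reads the difference stayed at 2.66.

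Calcb did not pass the same test. In Gast mice its level was 3.24, 1.34, 2.20, 2.09 and 2.68 for GastG and 1.51, 2.44 and 2.05 for GastP. In Int mice it was 1.42, 2.24 and 0.64 for IntL, 1.12, 1.00, 2.95 and 0.37 for IntP, 3.33, 2.61 and 1.86 for IntM, and 2.67, 2.86 and 2.54 for IntD. The Gast values fell inside the range of the Int values. The means were 2.19 ± 0.613 in Gast mice (n = 8) and 1.97 ± 0.966 in Int mice (n = 13), a difference of 0.14 (SE 0.290, 95% interval -0.46 to 0.73, limma adjusted p = 0.820).

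Within the Int codes Calcb ran from low in IntP and IntL to higher in IntM and IntD, but the spread between mice was wide. IntL averaged 1.43 ± 0.798 (n = 3), IntP 1.36 ± 1.11 (n = 4), IntM 2.60 ± 0.737 (n = 3) and IntD 2.69 ± 0.161 (n = 3). The limma F test over the 4 Int codes gave an adjusted p of 0.0882 for Calcb and of 0.785 for Calca, with 1252 of 12713 genes (9.85%) called. Over all 7 codes the adjusted p was 0.102 for Calcb and 2.60e-05 for Calca, with 2835 genes (22.3%) called. Calcb passed without IntP mouse 16, when the adjusted p was 0.0174 over the Int codes and 0.0126 over the 7 codes.

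In order of code means, Calca ran GastP (3.49 ± 0.0831), GastG (3.33 ± 0.991), Port (2.03 ± 0.903), IntL (1.09 ± 0.209), IntP (0.877 ± 0.233), IntD (0.600 ± 0.521) and IntM (0.469 ± 0.0880). Mice of neighbouring codes in that order overlapped throughout. Calcb ran IntD (2.69 ± 0.161), IntM (2.60 ± 0.737), Port (2.46 ± 0.452), GastG (2.31 ± 0.71), GastP (2.00 ± 0.468), IntL (1.43 ± 0.798) and IntP (1.36 ± 1.11), again with overlap between all neighbours.

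The cells behind these averages differed in how much Calca they held. Calca was present in 35 Gast cells (33.3%), with a median of 339.01 CPM and a highest value of 7128 CPM, and 15 of the 35 reached 1000 CPM. It was present in 18 Int cells (10.7%), with a median of 25.5 CPM and a highest value of 274.4 CPM, and none reached 1000 CPM. By mouse, 35.8 ± 10.8% of Gast cells (SD, n = 8) and 10.5 ± 5.63% of Int cells (n = 13) had Calca. Calcb-positive cells differed less, with a median of 46.4 CPM in Gast (highest 331.2) and of 33.02 CPM in Int (highest 227.99). Their share by mouse was 34.5 ± 7.29% in Gast and 35.7 ± 20.4% in Int.

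Cells with both CGRP genes made up a larger share in Gast than in Int mice. In Gast mice 27.9 ± 7.81% of cells (20% to 40%, n = 8) held both Calca and Calcb, against 7.76 ± 6.35% in Int mice (0% to 16.7%, n = 13), and no Gast mouse overlapped an Int mouse. The exact two-sided permutation test over mice gave p = 9.83e-06 (4.91e-05 adjusted over 5 permutation tests of these genes, all chosen after their values had been seen). Cells with Calcb and no Calca made up 6.61 ± 6.18% in Gast mice and 27.9 ± 21.2% in Int mice (exact permutation p = 0.00706, adjusted 0.0118), and here the mice overlapped. That last difference did not pass at a stricter presence call of 100 reads (p = 0.0619, exact permutation) or with cells thinned to 100000 reads (p = 0.131, exact permutation). Reads of the last coding exon are uncertain between Calca and Calcb, and a GastG cell with 683 and 10 reads of them counted as holding both. The most Calca reads in a cell were 7147 in Gast and 679 in Int. The part of shared reads in these shares, and in the counts of cells with both below, was not tested.

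Counted over cells, Calca was missing from 8 of 35 Calcb-positive Gast cells (22.9%) and from 45 of 59 Calcb-positive Int cells (76.3%). In IntM it was missing from 20 of 21 (95.2%), in IntD from 13 of 17 (76.5%), in IntP from 6 of 10 (60%) and in IntL from 6 of 11 (54.5%). In Port it was missing from 24 of 46 (52.2%). Calca was rare among Calcb-positive cells mainly in IntM and IntD. At a presence call of 1 read, Calca was found in 79.6% of Calcb-positive Gast cells and in 42.7% of Calcb-positive Int cells. How often the genes meet also depends on how common each is. In Gast 27 cells held both, where independent genes would give 11.7, and in Int 14 cells held both, where independent genes would give 6.28, so the ratio of observed to expected was 2.31 in Gast and 2.23 in Int.

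**Figure D2:**
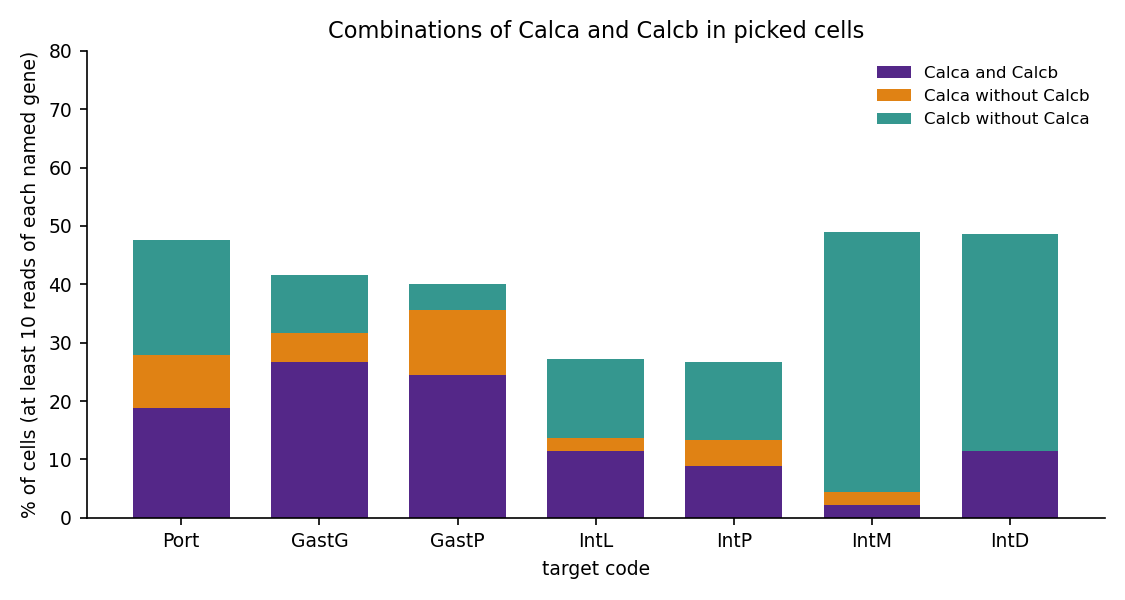
Percent of the cells of each target code with Calca and Calcb, with Calca alone and with Calcb alone, each present at 10 reads. Cells with both make up 26.7% in GastG and 24.4% in GastP, and cells with Calcb alone make up 44.4% in IntM and 37.1% in IntD.

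Calca minus Calcb, taken within each mouse on the log2(CPM + 1) scale, gave the same contrast as 1 value per mouse. It averaged 1.20 ± 0.63 in Gast mice (0.20 to 2.08) and -1.20 ± 1.15 in Int mice (-2.93 to 0.42), a difference of 2.40, given as a description. Only the difference between groups is read here, since reads are not scaled by transcript length and the sign within a group depends on it. By code it stood at 1.02 ± 0.66 in GastG, 1.49 ± 0.55 in GastP, -0.34 ± 0.59 in IntL, -0.48 ± 1.20 in IntP, -2.13 ± 0.82 in IntM and -2.09 ± 0.41 in IntD. This difference and the 2 tests on shares of cells rest on the same reads and are not independent of each other or of the Calca comparison.

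**Figure D3:**
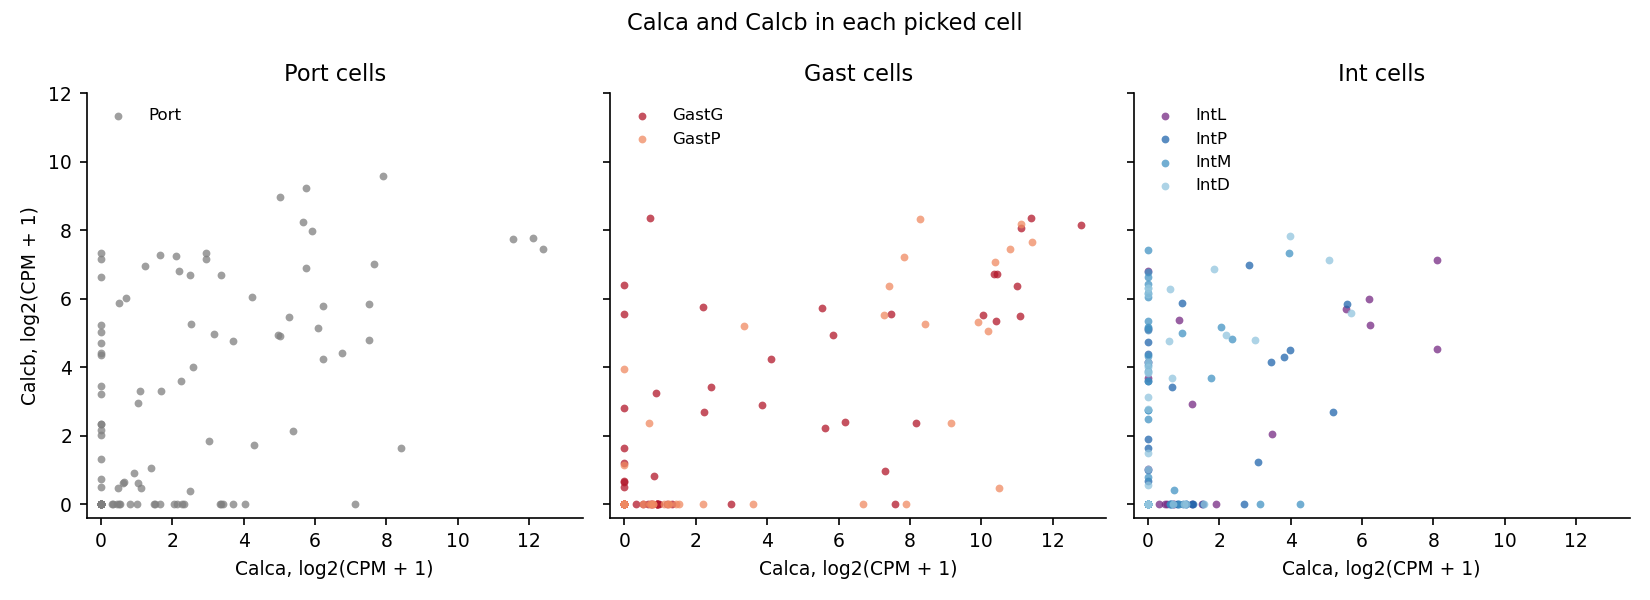
CPM of Calca (x axis) and Calcb (y axis) in single picked cells on log axes, by group of target codes, with cells without reads drawn at the lower edge. Calca reaches 7128 CPM in Gast cells and 274.4 CPM in Int cells, while Calcb reaches 331.2 CPM in Gast cells and 227.99 CPM in Int cells.

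Neither CGRP gene passed the test between GastG and GastP. Calca averaged 3.33 ± 0.991 in GastG (n = 5) and 3.49 ± 0.0831 in GastP (n = 3), a difference of -0.16 (SE 0.470, 95% interval -1.12 to 0.80, limma adjusted p = 0.996). Calcb averaged 2.31 ± 0.71 in GastG and 2.00 ± 0.468 in GastP, a difference of 0.31 (95% interval -0.64 to 1.25, limma adjusted p = 0.996). Limma called 0 of 12713 genes (0%) in this comparison, with 550 genes (4.33%) at an unadjusted p under 0.05, while edgeR called 0 and DESeq2 called 6. GastG mouse 42 set the sign for Calca, which was 0.10 without it. GastP mouse 44 moved the count of called genes most, to 15 without it.

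The CGRP genes passed no test between IntL and the other Int codes at the level of mouse averages. Calca averaged 1.09 ± 0.209 in IntL mice (n = 3) and 0.672 ± 0.338 in the other Int mice (n = 10), a difference of 0.44 (SE 0.425, 95% interval -0.43 to 1.31, limma adjusted p = 0.612). Of the 18 Calca-positive Int cells 6 were IntL, and both cells above 100 CPM were among them. On summed reads the same comparison passed, at 3.03 in edgeR (adjusted p = 0.0305) and 3.12 in DESeq2 (adjusted p = 0.0188). Calcb averaged 1.43 ± 0.798 in IntL mice and 2.13 ± 0.988 in the others, a difference of -0.79 (95% interval -1.64 to 0.07, limma adjusted p = 0.296). In this comparison 701 genes (5.51%) were called, 3.04% of all genes higher and 2.47% lower, and 0.842% were called without IntL mouse 33.

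On average the CGRP genes passed no test between Port mice and the midpoint of the Gast and Int means, but Port mice differed among themselves. For Calca the Port mean (2.03) lay between the Gast (3.39) and Int (0.768) means. A small difference from the midpoint therefore does not make Port like Gast or like Int, and Port was not tested against either alone. The Calca difference was -0.06 (SE 0.272, 95% interval -0.62 to 0.50, limma adjusted p = 0.924) and the Calcb difference 0.37 (95% interval -0.18 to 0.91, adjusted p = 0.426). In that comparison 635 genes (4.99%) were called, 2.05% of all genes higher and 2.95% lower. Calcb in Port was even across mice, at 2.76, 2.68, 1.98, 2.26, 3.21, 2.07, 1.97 and 2.72. Port mice 21, 22 and 27, the 3 with the most Calca, also stood apart in transcripts of nerve injury. Sprr1a was at 5.60, 9.42 and 7.77 in them against 0.17 to 3.12 in the other Port mice. Atf3 was at 8.79, 10.24 and 9.85 in them against 4.82 to 6.54 in the others. Without those 3 mice the Calca difference was -0.65 (adjusted p = 0.356) and 26 genes were called. With mice numbered 39 or lower alone it was 0.78 (adjusted p = 0.0687) and 3554 genes were called. The mouse number and the injury transcripts move together in Port and cannot be told apart.

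Tac1 was scarce in picked cells. It was present in 18 coded cells (4.55%) and so did not pass the filter of 10 reads in 5% of coded cells. Its level was 0, 0.23, 0.36, 1.13 and 1.52 in GastG mice and 0.52, 0.89 and 0.41 in GastP mice. Int mice had 0.85, 0.08 and 0 in IntL, 0.41, 0.38, 0.26 and 0.12 in IntP, 0 in all 3 IntM mice, and 0.12, 0.35 and 0 in IntD. Of the 8 Gast mice 7 lay above the Int median, but the groups overlapped.

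Tac1 averaged 0.631 ± 0.509 in Gast mice (n = 8) and 0.198 ± 0.251 in Int mice (n = 13), a difference of 0.43 (exact two-sided permutation over 203490 splits, p = 0.0209, adjusted 0.0262). By share of cells it was present in 9.31 ± 10.0% in Gast mice and 2.00 ± 3.13% in Int mice (exact permutation p = 0.0296, adjusted 0.0296). In limma without a filter on low values, over 18522 genes, the difference was 0.44 and its adjusted p 0.0951. It was 0.32 with cells thinned to 100000 reads and 0.24 without cells matched to the Sst and Ctxn3 cluster, and neither passed. The test missed the threshold without GastG mouse 42 (0.36, p = 0.0539, exact permutation) and without GastG mouse 43 (0.31, p = 0.0550, exact permutation).

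The Tac1-positive cells were few enough to count. They were 8 of 60 GastG cells from 2 mice, 4 of 45 GastP cells from 3 mice, 4 Int cells (2.37%) from 4 mice, and 2 Port cells (1.64%) from 1 mouse. Their median was 20.4 CPM in Gast, with a highest value of 595 CPM, and 76.3 CPM in Int. The 2 Port cells, both of mouse 52, held 20.1 and 2250 CPM. The 53 cells coded na held 9 Tac1-positive cells, 1 or more in each of 4 mice.

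Few picked cells held Tac1 with a CGRP gene, and few held Tac1 at all. In all 70 cells held Calca and Calcb, which was 75.3% of Calca-positive and 45.5% of Calcb-positive cells. Only 8 held Calca and Tac1, 11 held Calcb and Tac1, 7 held all 3, and 15 of the 27 Tac1-positive cells held neither CGRP gene. None of the 3 was present in 57.2% of cells. Of the Tac1-positive cells 29.6% held Calca, against 20.7% of all cells, and 40.7% held Calcb, against 34.3% of all cells. Calca was in 0 of 2 Tac1-positive Port cells, 3 of 12 in Gast, 2 of 4 in Int and 3 of 9 in na.

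Genes that varied most like each member across the picked cells were taken by Pearson correlation of log2(CPM + 1), as a description. For Calca they were Calcb (0.556), Tmem100 (0.555), Tnfaip8l3 (0.536), Bcl3 (0.482) and Pnlip (0.475). For Calcb they were Calca, Pkib (0.475), Cd9 (0.443), Unc5b (0.417) and Pctp (0.391). For Tac1 they were Klhl1 (0.431), Galnt14 (0.395), Mdfic (0.337), Kcnmb2 (0.334) and Rassf4 (0.326). Calca and Tac1 correlated at 0.0402 and Calcb and Tac1 at 0.00481. Cells of a mouse share a preparation, and all cells share the scaling to depth. Calca and Calcb may also share reads of the last coding exon.

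Among 42 genes of 5 lists on peptide signalling, no receptor part for CGRP was called between Gast and Int. Ramp1 differed by -0.02, Ramp2 by -0.05 and Tacr2 by -0.16, none past the threshold. Calcrl, Ramp3 and Tacr1 were present in 6, 0 and 9 picked cells and were not tested. Tacr3, the receptor preferring neurokinin B, averaged 2.27 ± 1.44 in Gast mice (n = 8) and 0.297 ± 0.286 in Int mice (n = 13), 2.08 higher (SE 0.359, limma adjusted p = 1.50e-04). Of 9 CGRP receptor genes and relatives 4 were tested, with differences between -0.33 and 0.01, and of 5 tachykinin relatives and receptors 2 were tested and 1 was higher, beside 9.05% of all genes. The list medians were -0.03 and 0.96, against 0.07 over all genes tested.

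Of the 15 genes of peptide processing and dense-core vesicles, all tested, 2 were higher (beside 9.05% of all genes) and 3 lower (beside 5.72%) in Gast than in Int, with a median of -0.12 against 0.07 over all genes. Vgf, a secreted granule protein and peptide precursor, was 1.26 higher (limma adjusted p = 7.44e-04) and Cpe, the carboxypeptidase that trims peptide intermediates, 0.28 higher (0.0150). Pcsk1n, the inhibitor of the convertase PC1, fell by 0.26 (0.0168), the granin Scg2 by 0.93 (0.0110) and the vesicle membrane protein Ptprn2 by 0.56 (9.78e-05). All 5 overlapped between mice. With TMM scaling Cpe stood at 0.21 (adjusted p = 0.101) and did not pass. Without GastP mouse 44, Cpe (0.25, adjusted p = 0.0524) and Scg2 (-0.80, 0.0512) did not pass, nor did Pcsk1n without GastP mouse 10 (-0.20, 0.0890). Without the cells matched to the Sst and Ctxn3 cluster, Ptprn2 stood at -0.17 (adjusted p = 0.419), Pcsk1n at -0.05 (0.801) and Scg2 at -0.86 (0.1004), and none passed. Pcsk1n and Cpe each passed in 14 of 17 other settings, Scg2 in 15 and Ptprn2 in 16, while Vgf passed in all 17. The convertases Pcsk1 and Pcsk2, which cut the CGRP and tachykinin precursors, and the amidating enzyme Pam were not called.

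Of 4 peptide breakdown genes 2 were tested and Ece1, an endopeptidase that degrades CGRP and substance P in endosomes, was 0.75 higher (limma adjusted p = 1.68e-04). Of 9 peptidergic nociceptor genes 7 were tested and 3 were higher, beside 9.05% of all genes, with a median of 1.04 against 0.07 over all genes. Th, the first enzyme of catecholamine synthesis, averaged 6.34 ± 1.31 in Gast mice and 3.64 ± 1.68 in Int mice, 2.61 higher (limma adjusted p = 7.59e-04), and the capsaicin receptor Trpv1 was 1.69 higher (0.00997). Without the cells matched to the Sst and Ctxn3 cluster, Th stood at 1.57 (adjusted p = 0.0879) and did not pass. Th was not left out of the clustering or the matching, so that setting is not independent of it. Trpv1 missed the threshold without GastP mouse 10 (1.39, adjusted p = 0.0532). Trpa1 differed by 1.04 (adjusted p = 0.0755).

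**Figure D4:**
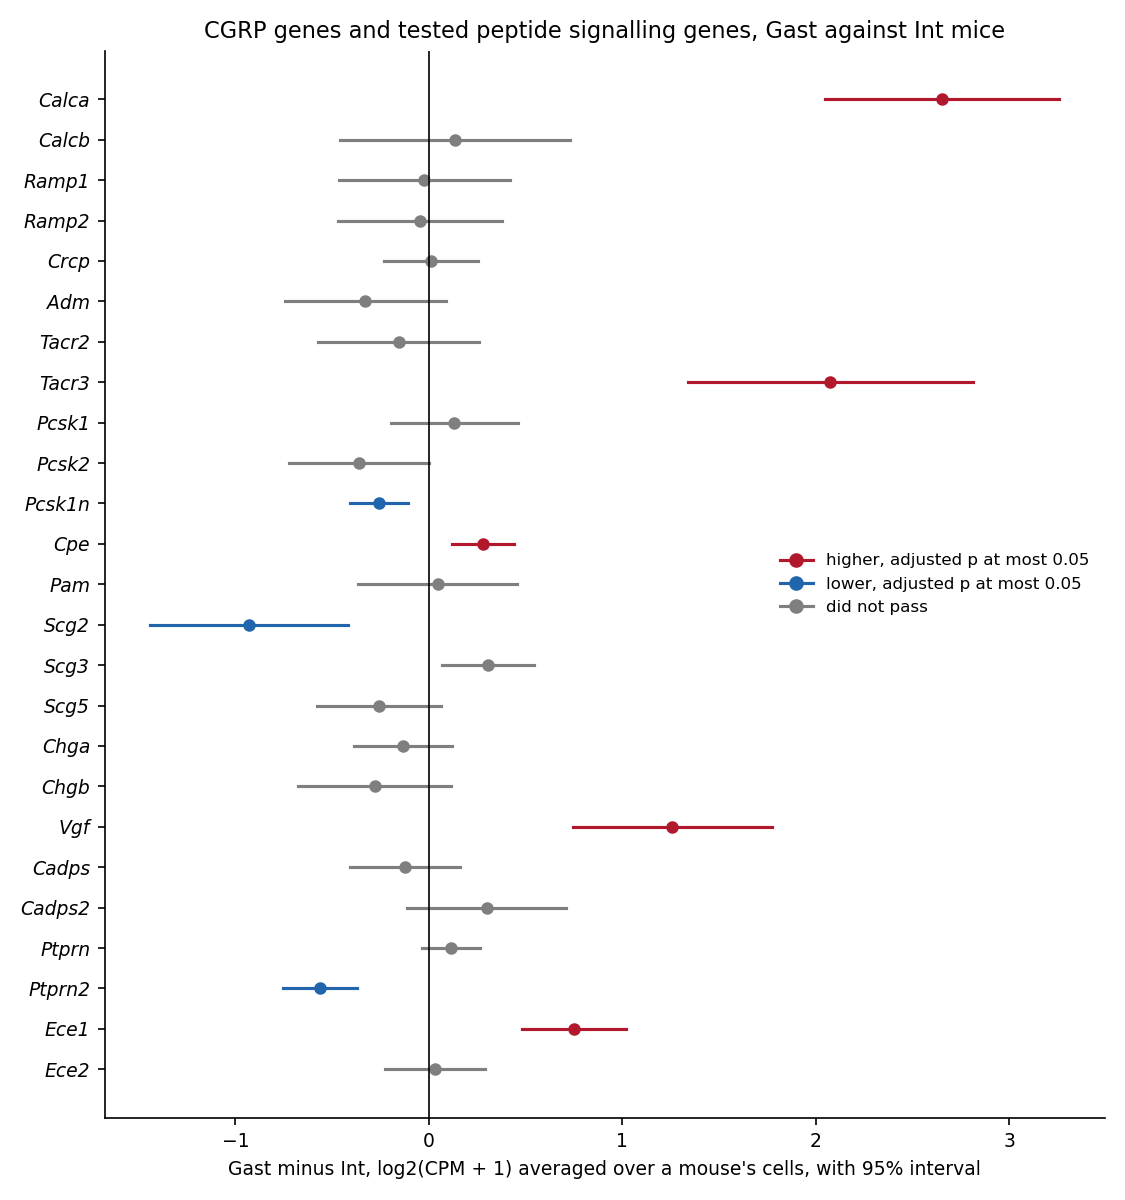
Difference between Gast and Int mice in mean log2(CPM + 1) for Calca, Calcb and the tested genes of the receptor, tachykinin, processing and breakdown lists, with 95% intervals from limma. Calca (2.65) and Tacr3 (2.08) lie farthest to the right, and Calcb (0.14) lies at 0 within its interval.

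Ramp1, the accessory protein of the CGRP receptor, and its relative Ramp2 were called higher in IntL than in the other Int codes, though not without IntL mouse 33. Ramp1 averaged 1.92 ± 0.364 in IntL mice (n = 3) and 0.57 ± 0.579 in the others (n = 10), 1.32 higher (limma adjusted p = 0.0108). Ramp2, another accessory protein of the same receptor family, averaged 1.55 ± 0.391 in IntL mice and 0.488 ± 0.249 in the others, 1.06 higher (adjusted p = 0.0336) and without overlap between mice, as were 3.91% of all genes. Cadps2, a vesicle priming factor (1.34, adjusted p = 0.00559), Ece1 (0.86, 0.00639) and Th (2.85, 0.0227) were also higher in IntL. Without IntL mouse 33 none of the 5 passed, at differences of similar size: Ramp1 stood at 1.15 (adjusted p = 0.155), Ramp2 at 1.13 (0.146), Cadps2 at 1.25 (0.0831), Ece1 at 0.88 (0.0605) and Th at 2.63 (0.182). Ramp2 also missed the threshold without IntL mouse 34 (1.20, adjusted p = 0.0617) or 39 (0.83, 0.186), IntD mouse 19 (1.02, 0.0547) or IntM mouse 20 (1.01, 0.0525), Cadps2 without IntL mouse 34 (1.03, 0.0880) and Th without IntL mouse 39 (2.67, 0.0923). With cells thinned to 100000 reads Ramp2 stood at 0.61 (adjusted p = 0.258), and on summed reads Ramp1 stood at 2.28 (0.154 in edgeR), neither of which passed. In other settings Ramp1 passed in 13 of 16, Ramp2 in 12 of 16, Th in 14 of 17, and Cadps2 and Ece1 in all of 16 and 17. Those 5 were the calls among 30 tested pathway genes, beside 5.51% of all genes, and Apoe, a satellite glia marker, was higher in IntL too. The part of glial RNA in the Ramp values was not tested. In Port mice Gfra3 was higher (0.88, adjusted p = 0.0418) and the sodium channels Scn10a (-1.25, 0.0260) and Scn11a (-1.10, 0.0491) were lower. Leaving out 1 mouse at a time kept the call of Gfra3 in 12 of 29 fits, of Scn10a in 26 and of Scn11a in 6. Without Port mice 21, 22 and 27 none of the 3 passed, with Gfra3 at 0.13, Scn10a at -0.77 and Scn11a at -0.46.

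To place picked cells among neuron types, each was matched to the droplet cluster whose profile it resembled most. The members and the pathway genes other than Prdm12 and Th were left out of the matching. The cluster led by Gpr65, Edn3 and Sox5os2 took 82 picked cells from 26 mice, of which 42 had Calcb (51.2%) and 4 had Calca (4.88%). Of its 56 Int cells, from 13 mice, 30 had Calcb (53.6%) and 2 had Calca (3.57%), while only 3 Gast cells fell there. The cluster led by Sst, Ctxn3 and 1700011I03Rik took 85 cells, of which 26 had Calca (30.6%), 24 had Calcb (28.2%) and 12 had Tac1 (14.1%). It held 49 Gast cells, 20 of them with Calca (40.8%), and 4 Int cells. In the cluster led by Efcab6, Gm13205 and Gpc3, 21 of 36 cells had Calcb (58.3%) and 8 had Calca (22.2%). All 4 cells matched to the cluster led by Aldh1a3 and Car8 had Calca. Calca was also present in 5 of 8 cells (62.5%) of the cluster led by Nos1 and Lox. It was present in 9 of 17 (52.9%) of the one led by Stxbp6 and Trpa1, where 12 had Calcb (70.6%). In the clusters led by Camkv and Npas1 and by Pnoc, 8 of 17 (47.1%) and 9 of 26 cells (34.6%) had Calca. Only 2 picked cells matched the jugular-like cluster, and neither had 10 reads of any member.

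The droplet library gave 1087 neurons and 21 satellite glia with 68051490 UMIs in all, and a median neuron had 56119 UMIs. Clustering split the neurons into 28 clusters, 1 of them jugular-like by its markers (47 cells). All other neurons (1040 cells) are called nodose-like, with no threshold on nodose markers. Some of their clusters scored higher on the jugular-like than on the nodose-like list, by mean log2 fold over the other neurons. These scores were 0.35 and -2.08 in the cluster led by Aldh1a3, and -0.69 and -0.94 in the Sst cluster. They were -0.36 and -0.67 in the cluster led by Kcng1, and 0.006 and -1.20 in the one led by Slc17a7. With 1 library there is no test between these classes, and the intervals cover counting error only. UMIs count molecules, so levels of different genes can be set side by side here within the limits of capture.

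All 3 members were far higher in the jugular-like neurons. Calca stood at 1920 CPM there and at 65.6 CPM in nodose-like neurons, a ratio of 29.3 (28.2 to 30.4, exact Poisson interval). Tac1 stood at 918 CPM in jugular-like and 20.3 CPM in nodose-like neurons, a ratio of 45.2 (42.4 to 48.3). Calcb stood at 180.95 CPM in jugular-like and 18.8 CPM in nodose-like neurons, a ratio of 9.62 (8.71 to 10.6). At 5 or more UMIs, Tac1 was found in 74.5% of jugular-like and 4.13% of nodose-like neurons. Calca was found in 53.2% of jugular-like and 12.3% of nodose-like neurons, and Calcb in 44.7% of jugular-like and 8.65% of nodose-like neurons. The median depth was 72828 UMIs in jugular-like and 55638.5 UMIs in nodose-like neurons.

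CGRP transcripts were found in one part of the jugular-like neurons. A finer clustering divided them into 25 cells led by Prdm12, Tmem45b and Gfra3 and 22 cells led by Gm7271, Chodl and Kcnv1. The Prdm12 cells held 3858 CPM of Calca and 358.1 CPM of Calcb, and the Chodl cells held 4.67 CPM of Calca and 5.83 CPM of Calcb. Tac1 was present in both, at 1508 CPM in the Prdm12 cells and 334.8 CPM in the Chodl cells. At 5 UMIs 20 of the 47 jugular-like neurons held all 3 transcripts, and 23 of 25 Calca-positive ones held Tac1.

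**Figure D5:**
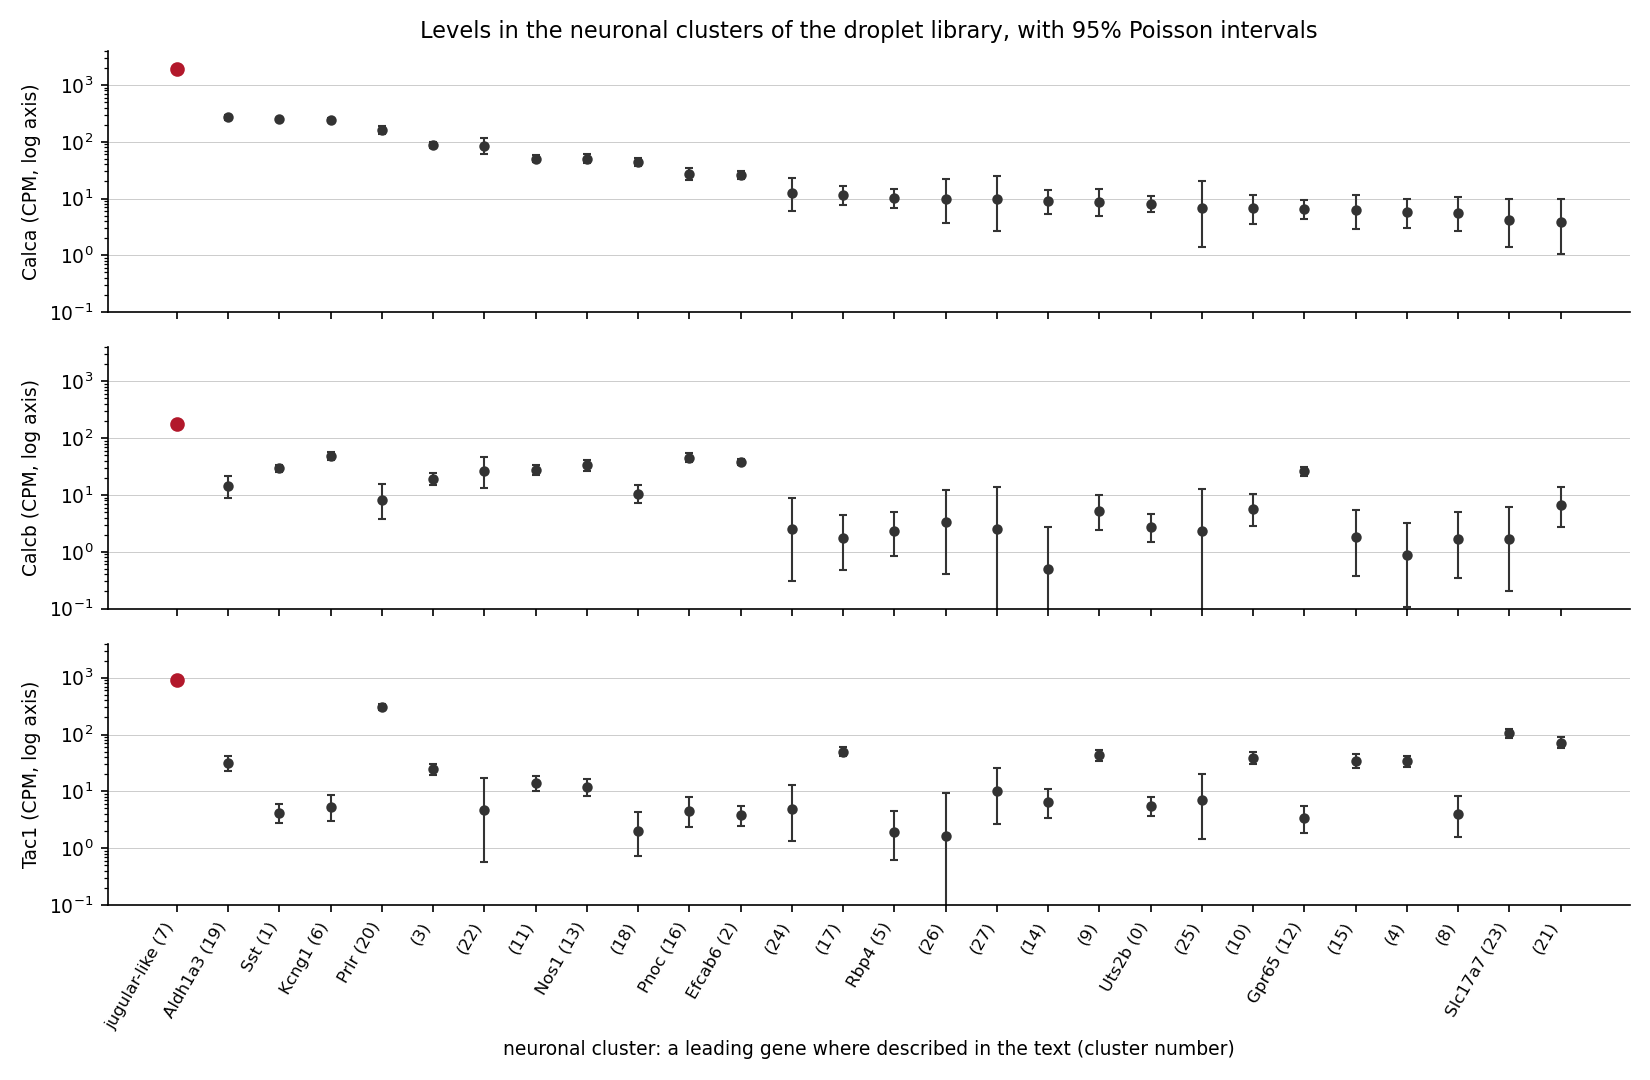
Level of Calca, Calcb and Tac1 (CPM of summed UMIs, log axis) in the 28 neuronal clusters of the droplet library, with exact 95% Poisson intervals for counting error and interval ends below the axis not drawn; clusters described in the text carry a leading gene and the others a number. The jugular-like cluster is highest for all 3 genes, at 1920, 180.95 and 918 CPM, and the nodose-like clusters with most Calca differ from those with most Tac1.

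Among the clusters called nodose-like, Calca and Tac1 peaked in different places. Calca reached 271.8 CPM (245.99 to 299.6) in the cluster led by Aldh1a3, 253.2 CPM (241.1 to 265.7) in the one led by Sst and 242.8 CPM (225.7 to 260.8) in the one led by Kcng1, A830092H15Rik and Smco4. The first 2 of these intervals, and the last 2, overlapped. Tac1 reached 303.9 CPM (272.3 to 338.1) in the cluster led by Prlr and Rbp2, where Calca was also present at 160.5 CPM (137.8 to 185.9). Its next highest level was 104.4 CPM (86.7 to 124.5) in the cluster led by Slc17a7 and Pcdh7, where 18 of 20 cells had Tac1 and Calca was at 4.24 CPM. Across the 28 clusters the lowest Calca level was 3.803 CPM.

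Calcb was spread more evenly. It was highest in the Kcng1 cluster at 48.4 CPM (40.96 to 56.9), followed by the cluster led by Pnoc, Ctla2a and Akr1b7 at 45.4 CPM (37.7 to 54.2), the Efcab6 cluster at 37.98 CPM (33.3 to 43.1) and the cluster led by Nos1, Lox and Gm13582 at 33.4 CPM (26.9 to 41.1). In the Pnoc cluster Calca stood at 26.98 CPM and in the Efcab6 cluster at 25.8 CPM, both below Calcb. The Gpr65 cluster held 26.5 CPM of Calcb (21.9 to 31.7) and 6.45 CPM of Calca, the same pairing as in the picked cells matched to it.

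At 5 UMIs, 73 droplet neurons held Calca and Calcb, which was 47.7% of Calca-positive and 65.8% of Calcb-positive neurons. Calca and Tac1 met in 27 neurons, 23 of them jugular-like. Among nodose-like neurons 4 held both, which was 3.12% of those with Calca and 9.30% of those with Tac1. A small number of cells held most of the transcripts, since the 10 neurons with most UMIs of a gene carried 46.1% of all Calca, 28.8% of all Calcb and 52.4% of all Tac1 UMIs in neurons.

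Low values in droplet cells need a background. Of the neurons 48.1% had 1 or more UMIs of Calca, 28.2% of Calcb and 26.2% of Tac1, at a median of 56119 UMIs. Satellite glia, which are not known to make these peptides, had 9.52% for Calca, 4.76% for Calcb and 9.52% for Tac1, at a median of 14919 UMIs. Thinned to 10000 UMIs per cell, neurons had 22.1%, 11.5% and 10.1%, and glia 4.76%, 4.76% and 9.52%. The thinned glia shares rest on 1, 1 and 2 of 21 cells. Their intervals for counting error ran from 0.12% to 23.8% for Calca and Calcb and from 1.17% to 30.4% for Tac1. The thinned neuron share of each member lay inside the interval of the glia. Single UMIs in neurons were therefore not told apart from the glia for any member. Barcodes of 100 to 1000 UMIs, which hold free RNA, had 128.2 CPM of Calca, 23.8 CPM of Calcb and 52.99 CPM of Tac1. No glial cell of 21 reached 5 UMIs of any member. No doublet caller was run.

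Across the 28 clusters the genes most like each member by Pearson correlation of log2(CPM + 1) were, for Calca, Calcb (0.772), Tmem233 (0.759), Nmb (0.756), Acpp (0.735) and Ppp3ca (0.734). For Calcb they were Calca, Ppp3ca (0.771), Prkca (0.761), Dcdc2a (0.752) and Chrna6 (0.749). For Tac1 they were Ank1 (0.852), Vstm2a (0.815), Capn2 (0.812), Zfp385b (0.810) and 1700020I14Rik (0.804). Calca and Tac1 correlated at 0.283 over the 28 clusters and Calcb and Tac1 at 0.104, all from 1 library.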

How the data were processed

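Per the labels, each picked cell was amplified with Smart-seq2 before Nextera tagging, and 10x Genomics reagents were used for the droplet library. The submitters' processing notes name Cell Ranger 2.0.1 and build mm10. For the picked cells no aligner or counter is given in the sources used. The deposited read table holds log2 values of reads per gene and cell with a floor at -5.64, the log2 of 0.02, which was read as 0 reads. Taken back to reads, 94.1% of values were whole within 1 part in 1000, and all values of Calca, Calcb and Tac1 were. In the deposited droplet matrices the values are counts of UMIs by gene and barcode, and the deposited gene and barcode lists hold names only. Mice and target codes come from header lines of the authors' table, and 1 per-sample column was not used. Depth ranged between 3934 and 4692466 reads per picked cell and between 13505 and 169263 UMIs per droplet cell.

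Of 452 picked cells 449 passed at 2000 genes and 396 of these carried a target code. Mice entered with 4 cells or more, which left 394 cells of 29 mice. Mean log2(CPM + 1) per mouse, for 12713 genes with 10 reads in 5% of coded cells, entered 1 fit over 7 codes (limma 3.58.1, R 4.3.3, prior variance following the mean level). P-values were adjusted over all genes at 0.05 (Benjamini-Hochberg). Differences are between means of codes, so they can depart from the difference of group means. EdgeR 4.0.16 (quasi-likelihood) and DESeq2 1.42.0 on reads summed per mouse, other pseudocounts, filters, TMM scaling, cell minimums, weights, thinning, subsets of mice and each mouse left out were alternatives. Further alternatives left out the cells matched to the Sst, Pnoc or Uts2b cluster. These had the highest droplet level of Calca, Calcb and Tac1 in turn, among clusters that took 20 or more picked cells. P-values measure the spread between numbered mice. The permutation tests of Tac1 and of shares of Calca and Calcb, and fits without Port mice 21, 22 and 27, were chosen after seeing the data.

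Droplet cells passed at 1000 UMIs and 500 genes and were clustered in scanpy 1.11.5 (2000 variable genes, 30 components, 15 neighbours, Leiden resolution 1.5, with 1 and 2 as alternatives). The members and pathway genes were left out of the variable genes, except Prdm12 and Th, which are also on the marker lists. The jugular-like cluster and the satellite glia were named from marker genes, and the members are not among these markers. All other neurons were called nodose-like. Picked cells were matched to clusters by 639 genes. Of 543 droplet neurons held out of the cluster profiles 85.5% returned to their own cluster. The clusters and the matching genes came from all neurons, so this check was not fully independent. It was not made on picked cells and gives no accuracy for their matches. Named genes are the 3 members, pathway genes called between Gast and Int, receptors, the 5 genes most like each member, leading genes of clusters, and pathway genes called in other comparisons. Sprr1a, Atf3 and the neuron and glia markers were named after their values were seen. Some genes that meet these rules are not reported here. The members and lists were chosen with earlier results of these data known.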

Additional observations from a re-analysis of the deposited data

Results flagged for a closer look

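Among the Port mice, mouse 52 stood far above the others in Tac1, with a mean log2(CPM + 1) of 0.896 and 11.1% of its cells at 10 reads. Both values rest on the same 2 cells. They were singled out among 18 sets of values, each a gene and a quantity in the mice of a code, with several sets from the same mice. The share of cells was 0% in every other Port mouse of the fit. Any single mouse with Tac1 would be flagged there, so the usual rate of 1 in 20 does not hold for such values.

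The 53 cells coded na entered no comparison, and all 3 members were present among them above the limit of 5.66% that a count of 0 cells allows. Calca reached 10 reads in 11.3% of na cells, Calcb in 24.5% and Tac1 in 16.98%. By mouse (31, 32, 36 and 37), Tac1 was present in 6.67%, 12.5%, 33.3% and 13.3% of cells, with highest counts of 1714 reads in mouse 36 and 2545 reads in mouse 37. Calca was present in 0%, 25%, 20% and 6.67% of the cells of these mice, and Calcb in 6.67%, 37.5%, 40% and 20%. The limit covers counting error only, and na cells have no target to be set against.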

How the results depend on the processing

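Calca was higher in Gast than in Int under all 17 other settings and in all 29 fits without 1 mouse (2.45 to 2.78). No paired analysis was possible because mouse numbers are not shared between codes.

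The percent of genes called moved most. Gast against Int (14.8%) had 9.31% thinned and 10.9% to 15.99% without 1 mouse. GastG against GastP (0%) had 0.0108% without a filter, 0.0472% in DESeq2 and with mice numbered 39 or lower, 0.0236% with mice numbered 40 or higher, 0.00787% with mice of at least 8 cells, 0.220% without Port 21, 22, 27 and GastP 44, 0.181% when GastG 41 was dropped too, 0.0157% without the 3 Port mice, 0.0944% without the Sst cluster, and 0% to 0.118% without 1 mouse. IntL (5.51%) had 8.43% in edgeR, 10.7% in DESeq2, 3.57% with at least 8 cells, 2.73% thinned, 8.80% without those 4 mice, 9.32% without the 5, 3.44% without the Sst cluster, and 0.842% to 6.33% without 1 mouse. Port (4.99%) had 1.16% without a filter, 8.81% in DESeq2, 0.0708% with at least 8 cells, 3.11% with weights, 2.95% thinned, 27.96% with mice numbered 39 or lower, 1.08% without the 4 mice, 1.71% without the 5, 0.205% without the 3 Port mice, 0.236% without the Sst cluster, 2.21% without the Pnoc cluster, and 0.511% to 10.9% without 1 mouse. Pathway calls for IntL were 3 with a pseudocount of 0.1, 2 with the 20% filter and 3 without the Sst cluster (0 to 6 without 1 mouse). For Port they were 1 (pseudocount 0.1, weights, the 4 or 5 mice left out, or the Pnoc cluster left out), 0 (no filter, at least 8 cells, without the Sst cluster or the 3 Port mice) and 11 (low mouse numbers), with 0 to 6 without 1 mouse.

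Signs turned only for differences that had not passed. Calca between GastG and GastP was 0.49 in edgeR, 0.51 in DESeq2 and 0.39 with low mouse numbers (-0.56 to 0.10 without 1 mouse). Calca in Port was 0.19 with a pseudocount of 0.1, 1.30 in edgeR, 1.34 in DESeq2, 0.78 with low mouse numbers and 0.60 without the Sst cluster (-0.28 to 0.06 without 1 mouse, positive at 0.041 without GastG 7, 0.060 without Port 46, 0.032 without 51, 0.065 without 52 and 0.020 without 53). Calcb between Gast and Int was -0.48 without the Sst cluster. Calca in IntL passed on summed reads (3.03, 3.12). The Calcb F test gave 0.0473 over 7 codes with weights and 0.0427 over the Int codes without the Uts2b cluster (0.0126 to 0.227 and 0.0174 to 0.199 without 1 mouse). Tac1 missed the threshold at 0.32 (thinned), 0.21 (low mouse numbers), 0.24 (without the Sst cluster) and 0.44 (limma without a filter), with 0.31 to 0.52 without 1 mouse. Calcb without Calca missed it at -5.88 points (100 reads) and -3.77 (thinned). The causes were not tested.

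Shares of cells depended on depth and threshold. At 1 read Calca was in 67.6% of Gast, 33.7% of Int and 57.9% of Port cells, Calcb in 47.7% of Gast and 55.3% of Port cells, and Tac1 in 9.07% of Int and 7.24% of Port cells. At 100 reads Calca was in 2.15% of Int and 11.7% of Port cells, and Calcb in 14.1% of Gast, 9.03% of Int and 16.3% of Port cells. Thinned, Calca was in 0.962% of Int and 7.71% of Port cells, and Calcb in 10.8% of Gast, 5.04% of Int and 14.6% of Port cells. Droplet ratios of jugular-like over nodose-like, as means over cells and thinned, were 44.8 and 41.7 for Calca, 13.8 and 14.6 for Calcb, and 53.4 and 51.4 for Tac1. Droplet shares at 5 UMIs and thinned were 14.1% and 22.1% for Calca, 10.2% and 11.5% for Calcb, and 7.18% and 10.1% for Tac1. At 14919 UMIs per glial cell and 21 such cells, droplet depth limits what a share at 1 UMI can show.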

Other observations

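Of the receptor genes, Calcrl, Ramp1, Ramp2 and Tacr3 had lower levels in jugular-like than in nodose-like droplet neurons. Crcp, from the same list of CGRP receptor genes, had a higher level in jugular-like neurons (39.3 against 27.2 CPM, ratio 1.44, 1.20 to 1.72). Calcrl, the ligand-binding part of the CGRP receptor, reached 64.9 CPM (50.8 to 81.8, exact Poisson interval) in the nodose-like cluster led by Prlr and Rbp2. That cluster also had the highest Tac1 level of all nodose-like clusters. Ramp1 was highest in the cluster led by Uts2b, Gabre and Cbln4 at 56.8 CPM (50.5 to 63.8). It had 1 UMI in all 47 jugular-like neurons (0.293 CPM), against 13.8 CPM in nodose-like neurons, a ratio of 0.0213 (0.000538 to 0.119). Tacr1, the substance P receptor, had 0 UMIs in jugular-like neurons and 35 in nodose-like neurons, 21 of them in the cluster led by Rbp4, Vstm2b and Lamp5. The interval of the Tacr1 ratio reached 2.10, so its level is not told apart between the classes. Tacr3 stood at 0.587 CPM in jugular-like and 4.82 CPM in nodose-like neurons. No background in glia or free RNA was taken for these receptor genes.

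Other peptidergic genes divided the classes too. Gfra3, the artemin receptor, had 70.7 CPM in jugular-like and 0.855 CPM in nodose-like neurons (82.6-fold). Pcsk1 (0.278-fold), Th (0.277-fold) and Scg2 (0.396-fold) were lower in jugular-like neurons, and Cpe (1.82-fold) and Scn10a (2.10-fold) higher. These are ratios within 1 library, with no test, and Th was not left out of the clustering.

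In the cells coded na, 6 of the 9 Tac1-positive cells held neither CGRP gene and 3 held both, and all 6 Calca-positive cells held Calcb.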
